A study of Mus musculus with 6 samples.

Results

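The comparison set cultured mouse embryonic dermal lymphatic endothelial cells (LECs) with Dot1l overexpression (OE-LECs) beside the same cells given empty lentivirus (Cont LECs). A gene was included when both libraries together held at least 30 reads, which kept 11971 of the 24421 genes counted. Of these genes, 154 are interferon-stimulated genes (ISGs), from a list of 178 in the count table, 18 of 28 are interferons, their receptors and their signalling mediators, and 11799 are neither and are called the other genes below. The interferon genes and the other genes are described separately.

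The series measured RNA in 6 libraries, of which this comparison uses 2, and a pair from the cultured embryonic yolk sac blood vessel endothelial cell (BEC) line CRL-2581, with the same Dot1l vector (OE-BECs) and with empty lentivirus (Cont BECs), is set beside it. The LECs, sold as C57-6064L and labelled wild type, were transduced with a lentivirus that carries guide RNAs to the Dot1l promoter, enhanced green fluorescent protein and a catalytically dead Cas9 fused to the activator VP64 (OE-LECs, labelled Dot1l OE), and Cont LECs are labelled wild type too. Transduced cells were sorted by fluorescence. Each library pooled cells of a few flasks and each condition has 1 library, so no difference has a replicate check, no p-value is given, and every comparison describes these 2 libraries. What the empty lentivirus carries is not given in the sources used here, so effects of the raised Dot1l, of vector parts that the control may lack and of any difference between the cultures cannot be told apart. In bulk RNA, more cells with a transcript and more transcript per cell cannot be told apart either.

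Dot1l encodes the methyltransferase that places methyl groups on lysine 79 of histone H3, a mark found over the bodies of transcribed genes. LECs line the vessels that drain tissue fluid and carry immune cells to lymph nodes, and endothelial cells of both kinds respond to interferon. Type I interferons bind a receptor of Ifnar1 and Ifnar2, whose kinases Jak1 and Tyk2 phosphorylate transcription factors such as Stat2. With Irf9 these enter the nucleus and bind a short element that repeats GAAA before many genes of antiviral defence, and some of those genes, among them Irf7, feed back on the pathway.

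The libraries held 26117161 reads in the control and 31032461 in the OE library, and the size factors were 0.923 and 1.08. Values are read counts, counts divided by the size factor (normalized counts), or the log2 ratio of normalized counts, OE-LECs over Cont LECs. The range after a log2 ratio is an exact 95% interval on the reads of the gene. It covers counting error only, since 1 library per side gives no spread between replicates. PCR copies of a molecule carry no identifier and are counted again, so the interval may be too narrow even for counting error. Counting error was small beside the other differences between the libraries: the interval excluded 0 for 48.6% of all 11971 genes, and among the 6013 other genes with at least 1000 normalized counts the log2 ratio had an SD of 0.27, against a median interval half-width of 0.083. A gene is said to have risen or fallen when its normalized counts differed more than 3-fold, and a count of 3 reads or fewer was set to 3. By this rule 103 of all genes rose (0.86%) and 43 fell (0.359%), and past 2-fold these were 261 (2.18%) and 171 (1.43%). Higher by any amount were 51% of the genes and lower 49%. In the BEC pair these shares were 48.1% and 51.9%. Counts of list members higher or lower are to be read beside these shares. The 22 genes with exactly 30 reads had a median log2 ratio of 0.16 and none differed more than 3-fold, whereas of the 30 genes with 29 reads, just outside, the median was -0.031 and 4 differed that much.

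The libraries were checked against the cell type. Pan-endothelial genes were abundant: Cdh5, the cadherin of endothelial junctions, had 50837 and 58415 reads, and Pecam1 had 31002 and 35537. Of 17 lymphatic genes, Lyve1, a hyaluronan receptor, had 52184 and 60898 reads and Flt4, the receptor for Vegfc, had 2785 and 4038. Both were read in the blood vessel line too. The Cont BEC library, of 17685615 reads, had 10680 reads of Lyve1 and 2552 of Flt4, so these genes do not show lymphatic identity. Prox1, the transcription factor that defines lymphatic identity, and Pdpn, Ccl21a, Tbx1 and Maf had 0 reads in both, and 0 reads allow up to 0.115 counts per 1000000 reads (CPM) in the first library and 0.0967 in the second. The defining marker Prox1 was therefore not detected in cells labelled LEC. Many markers of other cell types were absent: 5 of 12 macrophage genes, 7 of 10 keratinocyte genes, 3 of 6 fibroblast genes and 3 of 6 pericyte genes had 0 reads in both libraries. Summed over each list, CPM went from 96.7 to 84.4 for macrophage genes, where Cd68 (2435 and 2488 reads) holds most of the reads. The sums went from 7.05 to 9.73 for keratinocyte genes and from 3.41 to 3.71 for pericyte genes. For fibroblast genes the sum went from 8.04 to 20.3, most of it Pdgfra (7.01 and 19.3 CPM), while Col1a1 was at 1.03 CPM in both.

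Dot1l itself (chr10:80755206-80795461 of mm10) went from 2490 to 6720 reads between the control and OE libraries, or 2697 and 6203 normalized counts. It was 2.30-fold higher, with a log2 ratio of 1.20 (1.13 to 1.27), which is under the 3-fold rule. The 10 nearest genes with reads, which start from 98 kb before to 146 kb after the start of Dot1l, did not show a difference of that size. Mob3a had 691 and 1224 reads and the highest log2 ratio of them, 0.59 (0.46 to 0.73). Izumo4 had the lowest, -0.76 (-1.34 to -0.19), on 65 and 45 reads. Among the 14 genes for partners of Dot1l, of the kind that recruit it or join it in elongation complexes, none differed more than 3-fold, and the median log2 ratio was 0.01. Mllt3, whose product reads acetylated histones and binds Dot1l, was the 1 gene of them past 2-fold, at -1.18 on 6124 and 3177 reads (-1.24 to -1.12).

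**Figure D1:**
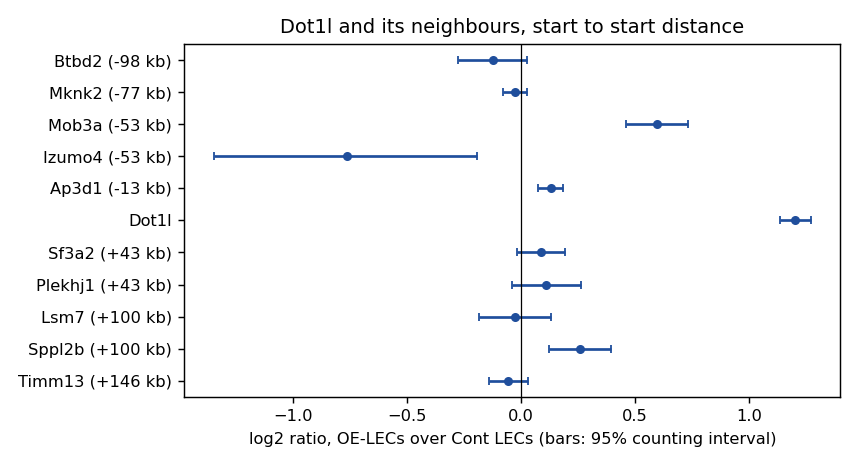
Log2 ratio of normalized counts, OE-LECs over Cont LECs, for Dot1l and the 10 nearest genes with reads, in order of distance between starts (kb), with bars for the 95% counting interval. Dot1l lies at 1.20 and its neighbours between -0.76 and 0.59.

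Promoters of some ISGs that rose are shown first, to let the repeat be seen beside the counts. These ISGs were picked among those holding the motif, so its presence in them was set by the choice. Of 29 risen ISGs with a searched window 19 held it, and no risen ISG without it is shown. The promoters are from RefSeq (GRCm38.p6), cover 160 bases up to the last base before the transcription start, and run 5′ to 3′ on the strand of the gene. Capitals mark GAAA, any 2 bases and GAAA again, or TTTC, any 2 bases and TTTC, which is the same motif on the other strand. Overlapping matches run together, as in Isg15. Dot1l, with no match, is shown because the guides were directed to its promoter. AI607873 is called Ifi207 in RefSeq, and Ifit1 shares its promoter with Ifit1bl2, which is read the other way.
Isg15, chr4:156200819-156200978, minus strand: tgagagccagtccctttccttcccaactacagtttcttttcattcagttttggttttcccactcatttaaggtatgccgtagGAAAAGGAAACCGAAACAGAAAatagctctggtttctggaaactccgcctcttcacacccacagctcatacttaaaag
Oas3, chr5:120777660-120777819, minus strand: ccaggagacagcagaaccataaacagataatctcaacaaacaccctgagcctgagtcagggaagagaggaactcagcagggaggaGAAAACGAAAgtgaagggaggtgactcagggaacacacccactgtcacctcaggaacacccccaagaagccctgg
Ifit1, chr19:34640729-34640888, plus strand: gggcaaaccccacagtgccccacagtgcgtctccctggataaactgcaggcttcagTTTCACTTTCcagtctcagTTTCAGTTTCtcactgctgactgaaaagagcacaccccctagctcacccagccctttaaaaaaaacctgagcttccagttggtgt
Ddx60, chr8:61927927-61928086, plus strand: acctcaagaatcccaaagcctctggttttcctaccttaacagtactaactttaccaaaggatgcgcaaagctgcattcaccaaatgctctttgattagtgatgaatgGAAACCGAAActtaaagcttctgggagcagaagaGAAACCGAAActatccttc
AI607873, chr1:173741810-173741969, minus strand: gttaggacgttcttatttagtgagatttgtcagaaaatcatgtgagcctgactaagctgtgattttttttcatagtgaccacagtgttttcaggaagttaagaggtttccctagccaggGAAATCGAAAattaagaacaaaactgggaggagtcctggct
Dot1l, chr10:80755043-80755202, plus strand: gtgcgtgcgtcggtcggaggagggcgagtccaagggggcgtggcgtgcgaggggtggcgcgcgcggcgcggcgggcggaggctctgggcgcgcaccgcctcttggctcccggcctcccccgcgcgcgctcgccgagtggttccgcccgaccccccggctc

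The motif of GAAA, any 2 bases and GAAA, on either strand, were searched in windows of 250 bases before to 50 after each RefSeq start. Among ISGs that rose and had a window, 19 of 29 genes held them (65.5%). The share was 14 of 26 (53.8%) for ISGs between 2-fold and 3-fold higher and 24 of 64 (37.5%) for ISGs not past 2-fold. Over all genes with at least 30 reads it was 341 of 9539 (3.57%), and over all 32851 windows 3.44%. Among the other genes, 1 of 49 that rose (2.04%) and 2 of 26 that fell (7.69%) held the motif. A second motif, TTC, any 3 bases and GAA, which reads the same on both strands and which STAT dimers can bind, was in 2 of the same 29 ISGs (6.9%), in 9 of the 26 between 2-fold and 3-fold higher (34.6%), in 12 of the 64 not past 2-fold (18.8%) and in 8.21% of all genes with at least 30 reads. Among the other genes, 7 of the 49 that rose (14.3%) and 4 of the 26 that fell (15.4%) held it. The table has no window for Oas2, Ccl5, Trim14, Usp18, Nlrc5, Ifi204 and Iigp1. Some ISG windows are shared or near copies, as for Ifit1 and Ifit1bl2 or Apol9a and Apol9b. The ISG shares thus count some sequences more than once. A match is a description of these letters, not a bound site.

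ISGs as a group stood higher in OE-LECs. Of the 154, 144 were higher and 10 lower, the median log2 ratio was 0.94 (quartiles 0.39 and 1.56), and the median over all genes was 0.0050. Past 3-fold 36 rose (23.4%, against 0.86% of all genes) and 0 fell, and past 2-fold 73 were higher. These 36 are 35.0% of all 103 genes that rose. Leaving out genes of multigene families, whose reads are hard to assign, takes away 71 of the 178 ISGs in the count table. Of those left 17 rose, a count that is lower in part by construction, and the ISG median was 0.73. ISGs went from 0.896% to 1.44% of the reads. In the BEC pair, 148 of these genes had at least 30 reads, with 66 higher, 82 lower and a median of -0.088. Over all genes of that pair the median was -0.019 and 48.1% were higher. The log2 ratio of Dot1l in that pair was 1.48. In BECs 6 ISGs rose and 3 fell, where 1.43% and 2.08% of all genes did. The difference between the cell lines was not tested.

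**Figure D2:**
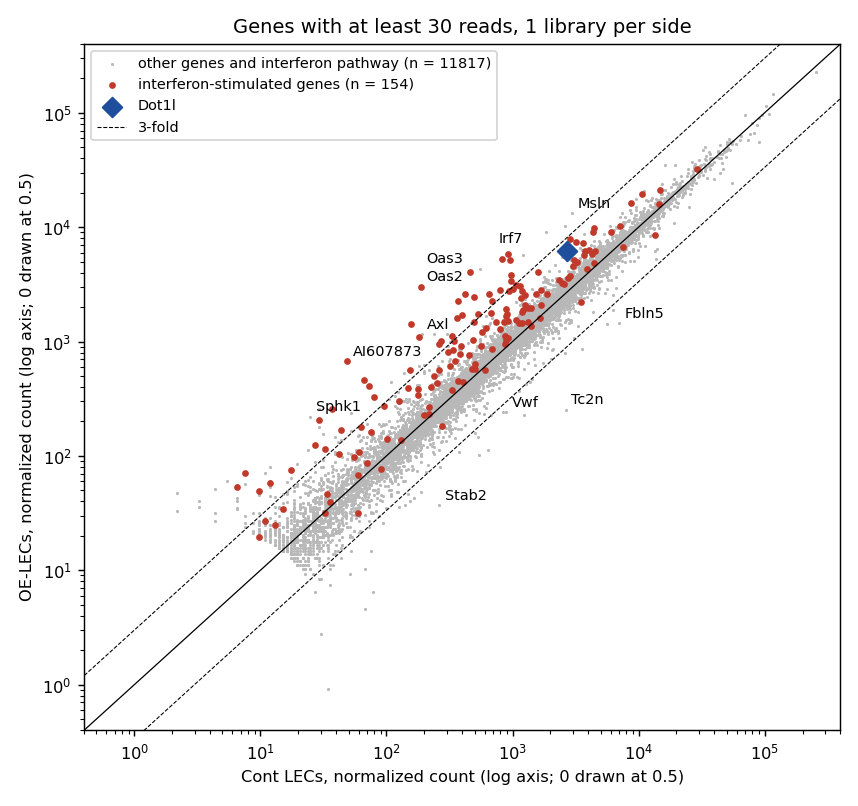
Normalized counts in Cont LECs (horizontal) and OE-LECs (vertical), both on log axes, for the 11971 genes, with the 154 ISGs as large red points, Dot1l as a blue diamond, the solid line for equal counts and dashed lines for 3-fold. Most ISGs lie above the line and 36 lie past the upper dashed line.

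Most interferon genes had no read. Of 16 interferon and receptor genes, Ifna1, Ifna2, Ifna4, Ifna5, Ifnk, Ifng, Ifnl2 and Ifnl3 had 0 reads in both LEC libraries. Ifnb1, the interferon that most cells make first on infection, had 1 and 5 reads, too few for a fold. Ifne, an interferon known for steady expression in the female reproductive tract, was read: it went from 954 to 558 reads, a log2 ratio of -1.0 (-1.16 to -0.85). The receptor genes were level. Ifnar1 had 3882 and 4257 reads (log2 ratio -0.10) and Ifnar2 1386 and 1588 (-0.03), and the receptor genes for interferon gamma, Ifngr1 and Ifngr2, were at 0.18 and -0.05. The median of the 6 genes with at least 30 reads was -0.04. Kinases, adaptors and feedback inhibitors of the pathway were close to level too: of 12, 9 were higher, none was past 2-fold and the median was 0.13. Jak1 was at 0.12, Tyk2 at -0.06, Irf3 at 0.25 and Mavs, the adaptor of the RNA sensors, at 0.16. The feedback inhibitors Socs1 and Socs3 were at 0.27 and 0.28. Ikbke, a kinase that activates Irf3 and Irf7, was the highest at 0.58 (0.42 to 0.74).

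The transcription factors of the response were higher in 13 of 14 cases, with a median of 0.74. Irf7, which drives a second wave of interferon genes, rose from 766 to 5679 reads, with a log2 ratio of 2.66 (2.55 to 2.77). Nlrc5, the activator of MHC class I genes, rose from 40 to 184 reads (1.97, 1.47 to 2.50). Stat2 and Irf9, which type I interferon brings together, were higher without passing the rule: Stat2 had 2856 and 5624 reads (log2 ratio 0.75) and Irf9 847 and 1646 (0.73). Irf1, which interferon gamma induces strongly, was at 0.20 (0.02 to 0.38), and Irf8 was the 1 factor lower, with 256 and 199 reads (-0.59, -0.87 to -0.32). In BECs the median of these factors was -0.23, with Irf7 at 0.24 and Stat2 at -0.51.

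Sensors of foreign nucleic acid varied among themselves. Of 10, 8 were higher, the median was 0.61 and only Ddx60, a helicase that works with the RNA sensors, rose, from 251 to 1104 reads (1.91, 1.71 to 2.11). Ifih1, the sensor of long double-stranded RNA, had 870 and 3023 reads, a log2 ratio of 1.57 (1.46 to 1.68) that lies just under 3-fold. Ddx58, the sensor of RNA ends, had 3744 and 6839 reads (0.64). Among the DNA sensors Mb21d1, which makes the messenger cGAMP, was at 0.29, its receptor Tmem173 at -0.04 and Aim2 at -0.04. Zbp1, which binds nucleic acid in the Z form, was at 0.99 on only 9 and 21 reads (-0.20 to 2.30). In BECs the median of 9 sensors was -0.17.

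The gene with the highest ratio belongs to the 2'-5' oligoadenylate synthetases, enzymes that sense double-stranded RNA and answer it with a nucleotide signal. Of the 10 genes on this list, 9 were higher, 5 rose and the median was 1.64. Oas2 (chr5:120730333-120749853) went from 173 to 3261 reads, the highest log2 ratio of any ISG, 4.01 (3.78 to 4.23). Oas3 (425 and 4373 reads, 3.13), Oasl1 (144 and 1543 reads, 3.19) and Oasl2 (886 and 5623 reads, 2.44) rose as well. Oas1g rose at 1.87 and Oas1a was at 1.40. In BECs the median was 0.38, with 8 of 10 higher. The sequences of Oas genes resemble each other, and a read may have been given to the wrong one. The same holds for the Ifit, Ifi200, GTPase, Trim30, Apol9, Phf11, Slfn and MHC class I families.

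IFIT proteins bind viral RNA and block its translation, and IFITM proteins hinder viral entry at membranes. The list of 7 had the highest median of the ISG groups, 2.61, although it held members at both ends. Ifit1 rose from 338 to 2461 reads (2.63, 2.47 to 2.80), Ifit3 from 388 to 2830 (2.64, 2.48 to 2.79) and Ifit3b from 167 to 1195 (2.61). Ifit1bl2 rose on few reads, 6 and 58 (3.04, 1.83 to 4.55), and Ifit2 was at 1.31. Ifitm3 and Ifitm2 were already abundant in Cont LECs, and neither was past 2-fold, at 0.52 (0.49 to 0.55) and -0.15 (-0.20 to -0.10). Per kilobase of exon, Ifitm3 went from 770 to 1090 CPM and Ifitm2 from 404 to 360, while Ifit1 went from 4.87 to 29.9. In BECs the list had a median of -0.30, and Ifit1, with 1745 and 940 reads, was lower.

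The Ifi200 family, DNA-binding proteins of a gene cluster on chromosome 1, was higher in each gene of the list. Of 12 symbols written for it 8 are in the count table, all 8 were higher and 7 rose, with a median of 1.85 and a lowest log2 ratio of 1.31 (Ifi205, on 10 and 29 reads). AI607873 went from 45 to 727 reads (3.78, 3.35 to 4.25), and Pyhin1 had 61 and 502 (2.81, 2.42 to 3.22). Ifi202b (898 and 4128 reads, 1.97), Ifi203 (896 and 3697 reads, 1.81) and Ifi204 (492 and 1900 reads, 1.72) rose with much deeper counts. This list was also higher in BECs, in 8 of 8 genes with a median of 1.25, unlike most of the ISG groups there. Aim2, a relative in the same cluster that is counted among the sensors, was at -0.04 on 1522 and 1738 reads.

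Interferon-inducible GTPases attack the vacuoles of parasites and bacteria and, in the case of Mx proteins, viral ribonucleoproteins. Of 18, 17 were higher, 13 past 2-fold, and 2 rose: Iigp1 (73 and 354 reads, 2.05) and Tgtp1 (25 and 135 reads, 2.20). Irgm2 (459 and 1610 reads, 1.58), Irgm1 (2642 and 8482 reads, 1.45) and Mx2 (316 and 1096 reads, 1.56) were next to the rule without passing it. Gbp4, with 562 and 610 reads, was at -0.11 (-0.28 to 0.06), Gbp9 was at 0.14, and Mx1 had 3 reads in each library. The median was 1.17 in LECs and -0.38 in BECs, where 12 of 16 were lower and Gbp4 went from 2493 to 604 reads.

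Isg15 is a ubiquitin-like protein that is attached to other proteins, by the enzymes Uba7, Ube2l6 and Herc6, and removed by Usp18, which also restrains the interferon receptor. All 5 genes of the system were higher. Isg15 rose from 454 to 2639 reads (2.31, 2.16 to 2.46) and Usp18 from 596 to 2841 (2.02, 1.89 to 2.15). Ube2l6 was at 1.55, Herc6 at 0.70 and Uba7 at 0.36. In BECs Isg15 had 277 and 198 reads (-0.10) and Usp18 was at 0.30.

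Among 57 other antiviral effectors 56 were higher, 11 rose and the median was 0.78. Rsad2 (viperin), which makes a chain-terminating nucleotide, rose from 632 to 2473 reads (1.74, 1.61 to 1.87), and Cmpk2, a nucleotide kinase whose gene lies beside it, rose from 366 to 1845 (2.10, 1.94 to 2.27). Ifi44 rose from 849 to 6264 reads (2.65), Apol9b from 333 to 1752 (2.16), Lgals3bp from 67 to 440 (2.48) and Trim30d from 34 to 279 (2.81). Per kilobase of exon, Bst2, which tethers budding virus, went from 418 to 748 CPM (0.86), and Ly6e from 273 to 298 (0.14). Ifi27 was the 1 member lower, with 3254 and 2380 reads (-0.68, -0.76 to -0.61). The BEC median was -0.02.

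The genes of MHC class I presentation, which show peptides of the cell to cytotoxic T cells, were higher in 18 of 18 cases with a median of 0.58, and none rose past 3-fold. B2m, the shared light chain, had 8116 and 17556 reads (0.88, 0.84 to 0.92), H2-K1 had 530 and 1315 (1.08, 0.93 to 1.23) and the peptide transporter gene Tap1 566 and 1426 (1.10, 0.96 to 1.25). The proteasome subunit Psmb8 was at 1.01, and Psme1 and Psme2, of its activator, were at 0.31 and 0.38. In BECs 14 of the 18 were lower, with a median of -0.36.

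Cytokine genes that interferon induces were split. Ccl5, which draws T cells, rose on few reads, 7 and 76 (3.21, 2.10 to 4.57), and Cxcl10 rose from 27 to 221 (2.80, 2.22 to 3.44). The monocyte chemokine Ccl2, by far the most abundant of the list, had 12515 and 9310 reads (-0.66, -0.70 to -0.62), and Ccl7 had 55 and 34 (-0.92, -1.59 to -0.28). Cxcl9 had 1 and 0 reads. The median of the 7 was 0.13. In BECs 5 of 6 were higher with a median of 0.52, among them Cxcl10 (8 and 27 reads) and Ccl5 (6 and 24 reads). Ccl2, lower in LECs, was higher in BECs, with 2335 and 3007 reads (0.75, 0.67 to 0.83).

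**Figure D3:**
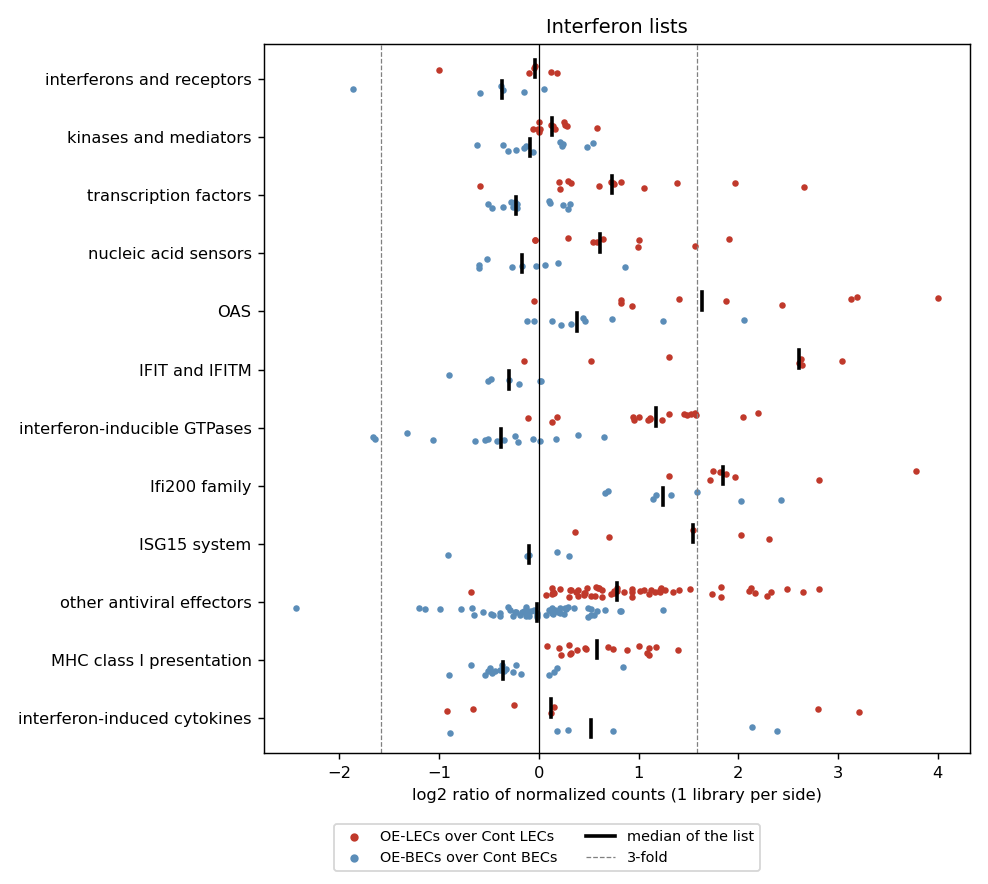
Log2 ratio of normalized counts for each gene with at least 30 reads in the 12 interferon lists, OE-LECs over Cont LECs in red and OE-BECs over Cont BECs in blue, with a black bar at each list's median and dashed lines at 3-fold. The LEC medians run from -0.04 for interferons and receptors to 2.61 for IFIT and IFITM genes, and the BEC medians from -0.38 to 1.25.

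Outside the interferon lists, 67 of 11799 genes rose (0.568%) and 43 fell (0.364%), and the median was 0.0024. Many rose on few reads: the median over both libraries was 97 reads for the risen and 187 for the fallen, and 31 and 25 of them reached 100 normalized counts in 1 of the libraries. Of the risen genes with at least 30 BEC reads, 35 of 42 were higher in BECs, where 48.1% of all genes were. Of the fallen, 36 of 39 were lower in BECs, where 51.9% of all genes were. The BEC pair shares no library with the LEC pair, and whether the cell lines differ was not tested.

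The largest rises that reached 100 normalized counts were of unrelated roles. Sphk1, the kinase that makes sphingosine 1-phosphate, went from 23 to 239 reads (3.15, 2.53 to 3.83) and Ano1, a calcium-activated chloride channel, from 27 to 280 (3.14, 2.57 to 3.77). S100a4, a calcium-binding protein linked to motility, went from 508 to 4648 (2.96, 2.83 to 3.10). Sphk1 and Ano1 thus started from fewer than 30 reads, and S100a4 did not. The receptor tyrosine kinase gene Axl rose from 176 to 1249 reads (2.60, 2.37 to 2.83), while its relatives Mertk and Tyro3 were at 0.50 and 0.51. Deep counts stood behind Msln, for the surface protein mesothelin (2750 and 14395 reads, 2.16), and Nptx1, for a secreted pentraxin (1699 and 9906 reads, 2.31). In BECs Msln went from 47 to 945 reads. Angptl4, an inhibitor of lipoprotein lipase, rose from 100 to 484 reads (2.04, 1.73 to 2.37), and Eps8, an actin regulator, from 48 to 257 (2.19, 1.74 to 2.67).

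Some of the largest rises belong to families that are read with care. Slfn4 (1116 and 6241 reads, 2.25) and Pydc3 (25 and 136 reads, 2.21) are relatives of interferon-inducible genes that the lists did not hold, and without such families 65 of the 67 rises are left. In BECs these genes were at 0.12 and -0.22. Lars2 (3654 and 17948 reads, 2.07) and Mir6236 (218 and 1269 reads, 2.31) were at 0.13 and 0.35 in BECs. Ribosomal RNA, read as Rn45s, took 0.0534% of Cont LEC reads and 0.0632% of OE-LEC reads. It took 5.91% of Cont BEC reads and 10.9% of OE-BEC reads, more than any other gene there. The part of ribosomal RNA in these counts was not tested. The others were Gm6093 (2.61), Cyp3a13 (2.31) and Vmn1r43 (2.24), all with fewer than 30 reads in Cont LECs.

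The largest fall was of Tc2n, from 2438 to 274 reads (-3.38, -3.57 to -3.20), and it was -3.0 in BECs. Of 10 genes for endothelial clearance and lipid uptake, 8 were lower and 2 higher, where 49% of all genes were lower. The median was -0.35, and 2 fell, Stab2 and Gpihbp1, where 0.359% of all genes did. Gpr182 is on no list. Stab2, a receptor that clears hyaluronan, fell from 242 to 40 reads (-2.83, -3.35 to -2.34), Gpihbp1, which anchors lipoprotein lipase on capillaries, from 585 to 123 (-2.48, -2.77 to -2.20) and Gpr182, a scavenger of chemokines, from 175 to 52 (-1.98, -2.46 to -1.53). Each was lower in BECs too, at -4.02, -2.14 and -2.44. Ednrb, an endothelin receptor, fell from 5216 to 1544 reads (-1.99), Fbln5, an elastic fibre protein, from 6441 to 1571 (-2.27) and Trp53i11 from 3287 to 934 (-2.05). Ttyh1 (-2.42), Dnajc22 (-1.96), Dapk2 (-1.93), Kcnj2 (-1.92), Myzap (-1.87) and Sez6l2 (-1.80) complete, with F8 and Vwf, the 15 largest falls among genes that reached 100 normalized counts. Beyond these, the stem cell factor receptor Kit fell from 5756 to 2034 reads (-1.73, -1.81 to -1.66).

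**Figure D4:**
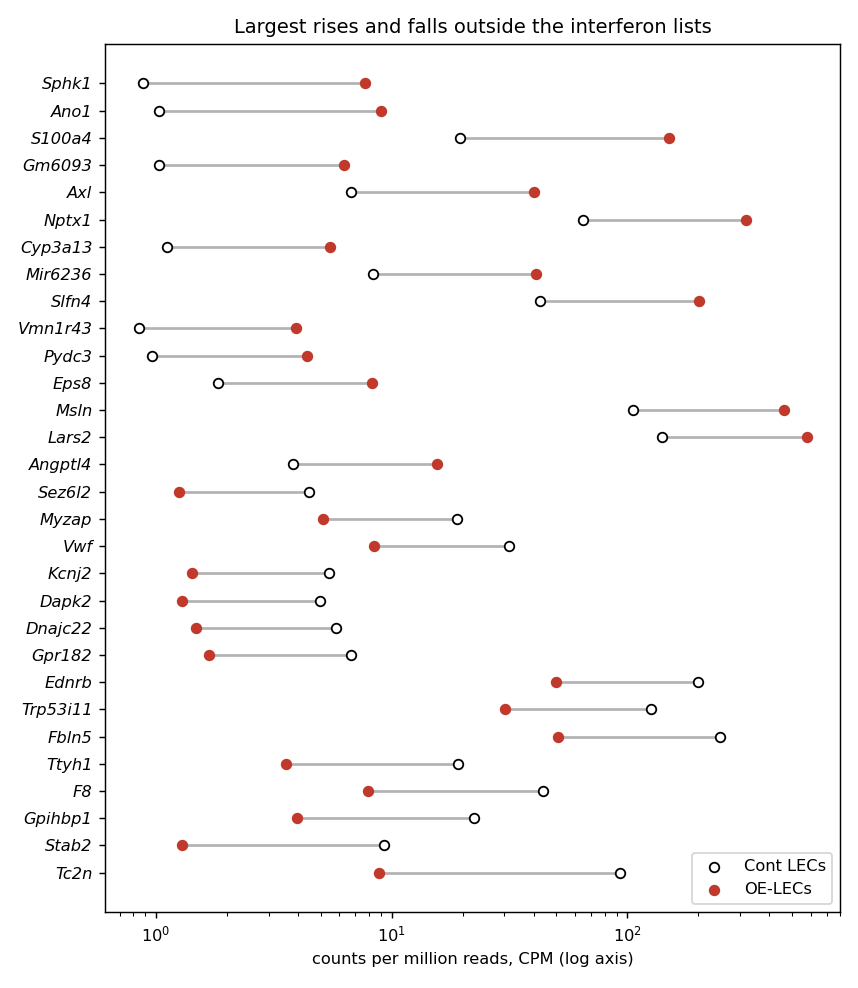
CPM (counts per 1000000 reads, log axis) in Cont LECs (open) and OE-LECs (red) for the 15 largest rises and the 15 largest falls outside the interferon lists, ordered by log2 ratio. Sphk1 heads the rises at 3.15 and Tc2n ends the falls at -3.38.

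Genes for clotting and its control differed among themselves. F8, coagulation factor VIII, fell from 1146 to 246 reads (-2.45, -2.66 to -2.25) and Vwf, its carrier in plasma, from 824 to 260 (-1.89, -2.10 to -1.69). No gene of the list rose, and several were higher without passing the rule: the protein C receptor gene Procr had 14083 and 25975 reads (0.65), Thbd 17766 and 28469 (0.45) and Plat, the tissue plasminogen activator, 510 and 1031 (0.78). Pros1, for the anticoagulant protein S, was at -0.04 on 1353 and 1547 reads. Of the 14, 10 were higher, where 51% of all genes were, and the median was 0.32. In BECs F8 and Vwf were at -2.16 and -2.18.

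Pan-endothelial genes were lower more often than higher. Of 29, 21 were lower, where 49% of all genes were, and the median was -0.27. Past 3-fold 3 fell (Gpihbp1, Vwf and Sox18), where 0.359% of all genes did. Sox18, a transcription factor of early lymphatic and vessel development, fell from 1281 to 477 reads (-1.66, -1.81 to -1.50). Cldn5, the main claudin of endothelial tight junctions, had 12650 and 5714 reads (-1.38, -1.42 to -1.33) and Flt1, a VEGF receptor, 2151 and 1161 (-1.12). The junction proteins Cdh5 and Pecam1 were both at -0.03 and the VEGF receptor Kdr at 0.16, so the list did not move as 1 block. In BECs 26 of 29 were lower, where 51.9% of all genes were, with a median of -0.62, including Cdh5 at -0.76. Of the 8 lymphatic genes with at least 30 reads, 3 were higher and 5 lower with a median of -0.07, and only Stab2 fell. Nr2f2, which acts upstream of Prox1, was at -0.49, and Flt4 at 0.31. Stab1, a scavenger receptor related to Stab2, had 12410 and 6746 reads (-1.11, -1.15 to -1.07).

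The list of cholesterol synthesis genes went in the direction opposite to the ISGs. All 19 were lower, where 49% of all genes were, with a median log2 ratio of -0.65 and a range of -1.04 to -0.21. The median over all genes was 0.0050. Of the 19, none differed more than 3-fold and 1 did more than 2-fold. Mvd, of the mevalonate pathway, had 1218 and 697 reads (-1.04, -1.17 to -0.90), and Dhcr7, of the last step, 855 and 531 (-0.92, -1.08 to -0.76). Hmgcs1, of an early step, had 5603 and 3777 reads (-0.80, -0.86 to -0.74). Insig1, a sensor that sterols and the factor Srebf2 control, had 6797 and 4510 (-0.82), and Srebf2 itself was at -0.39. The highest of the 19 stayed below 0 with TMM factors, total counts and size factors from the 4 cultured libraries or all 6 libraries. A change of scale moves all log2 ratios by the same amount, so this is no separate check of the list. The list was chosen with earlier results of these data known. In BECs 10 were higher and 9 lower, with a median of 0.04.

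Matrix genes moved one at a time. Of 18 genes for matrix proteases and inhibitors, 9 were higher and 9 lower. Mmp3 (stromelysin), which the study follows, rose from 292 to 1063 reads (1.63, 1.45 to 1.83), and Mmp15, a membrane-bound protease, fell from 2401 to 853 (-1.72, -1.84 to -1.61). The inhibitors Timp3 (10198 and 22481 reads, 0.91) and Timp2 (8796 and 19024 reads, 0.88) were higher. Sulf1, which trims heparan sulfate, rose from 429 to 1560 reads (1.63, 1.48 to 1.79), and none of the 12 collagen genes was past 2-fold. Col4a1, of basement membrane, had 59563 and 67773 reads (-0.04). The integrin list had 13 of 17 higher, where 51% of all genes were, with a median of 0.19. Itgb7 rose on few reads, 9 and 51.

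The lists for junctions, for semaphorins and plexins and for mesenchymal traits each held 2 genes that rose, and S100a4, given above, is one of the mesenchymal pair. Emp2, a membrane protein, had 11 and 58 reads (2.17, 1.22 to 3.25) and Fat2, a giant cadherin, 15 and 64 (1.86, 1.03 to 2.78). Cldn1 had 20 and 6 reads, which is under the minimum of 30 in all and outside the set described (-1.97, -3.57 to -0.60). Sema3c, a secreted guidance cue, rose from 136 to 607 (1.93, 1.66 to 2.21) and Plxna4, a receptor for such cues, from 184 to 680 (1.65, 1.42 to 1.90). Prrx1, a mesenchymal factor, had 6 and 60 reads (3.09, 1.89 to 4.59) and Pdgfra, which marks fibroblasts, 183 and 598 (1.48, 1.24 to 1.72). Vim was at 0.01, and Dcn, Lum, Dpt and Twist2 had at most 1 read in a LEC library.

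Growth and signalling lists had medians near the median of all genes, with single members that differed more. The 28 cell cycle genes had a median of -0.06 with 12 higher, and in BECs of 0.55 with 27 higher. The targets of YAP and TEAD had a median of 0.15 in LECs and 1.01 in BECs, where 11 of 11 were higher. No gene of either list differed more than 3-fold in LECs. Of 20 genes of the inflammatory NF-kB list, with a median of 0.17, none passed the rule, 3 were past 2-fold higher and 1 lower. Il33 (254 and 737 reads, 1.31), Ptgs2, the prostaglandin synthase (3403 and 9408 reads, 1.24), and Tnfaip3 (451 and 1149 reads, 1.12) were the highest, while Il6 had 114 and 61 (-1.13). Among immediate early genes Fos had 545 and 254 reads (-1.33, -1.55 to -1.11) and the median of the 20 was 0.09. The medians of genes for glycolysis and hypoxia (0.06), p53 targets (0.11), the unfolded protein response (-0.01), TGF-beta and BMP signalling (0.01) and ERK feedback (0.12) all lay between -0.01 and 0.12.

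**Figure D5:**
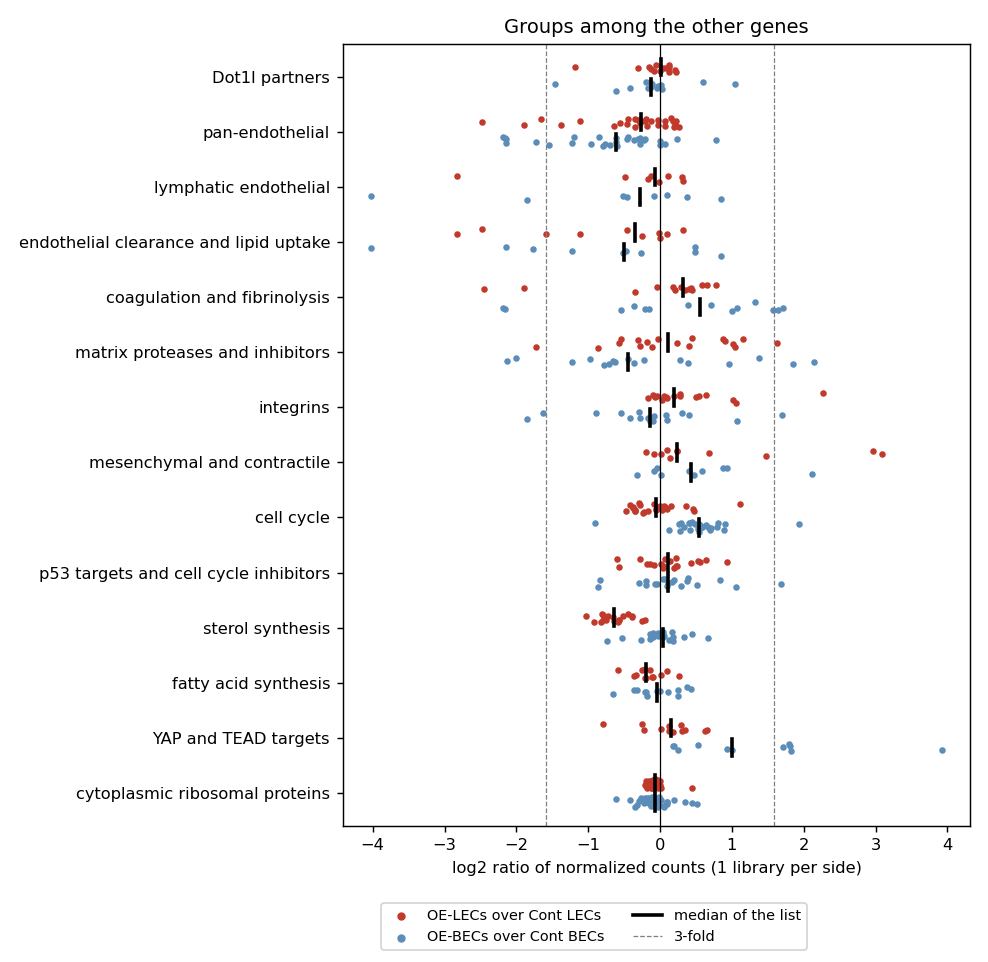
Log2 ratio of normalized counts for each gene with at least 30 reads in 14 lists among the other genes, OE-LECs over Cont LECs in red and OE-BECs over Cont BECs in blue, with a black bar at each list's median and dashed lines at 3-fold. All 19 red points for sterol synthesis lie below 0, between -1.04 and -0.21, and the cell cycle and YAP lists lie near 0 in LECs and higher in BECs.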

How the data were processed

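RNA-seq of sorted cultured cells was used. The authors made ScriptSeq v2 libraries, trimmed adapters with skewer, aligned the reads to mm10 with STAR and counted them per gene with VERSE, and deposited raw counts for 24421 gene symbols. Reads from near-identical genes may be split or lost by such counting. From these counts, size factors (median of ratios) were computed with DESeq2 1.42.0 on each OE and control pair, and log2 ratios and exact Clopper-Pearson 95% intervals with scipy 1.17.1. Genes with at least 30 reads were kept, and a gene past 3-fold was called, with 3 reads as the floor. Depth is 26117161 and 31032461 reads. Positions and exon lengths came from GENCODE M21. The steps were tested on simulated data. Genes named are Dot1l and its neighbours, those the study names, the interferon lists, the 15 largest rises and falls with at least 100 normalized counts, called or abundant list members, and some others chosen after their values were seen. Members and lists were chosen with earlier results of these data known. The lists of cytoplasmic ribosomal protein, fatty acid synthesis, S100, metallothionein, sphingosine 1-phosphate and sterol efflux genes were added after the values were seen. Some genes are not reported here.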

Additional observations from a re-analysis of the deposited data

Results flagged for a closer look

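The median log2 ratio of ISGs had opposite signs in the 2 cultured lines. It was 0.94 over 154 genes in OE-LECs against Cont LECs and -0.088 over 148 genes in OE-BECs against Cont BECs. In LECs 144 ISGs were higher and 10 lower, and in BECs 66 were higher and 82 lower. Over all genes the median was 0.0050 in LECs, with 51% higher, and -0.019 in BECs, with 48.1% higher. The BEC values of ISGs thus lay near those of all genes. Each line has 1 library per condition, so the difference between them was not tested.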

How the results depend on the processing

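The log2 ratio of Dot1l, the ISG median and the counts of ISGs that rose and of other genes that rose or fell were recomputed under other choices, which gave 46 values, of which 36 stayed close, 10 moved and 0 reversed. Size factors from the 4 cultured libraries, from all 6 libraries, TMM factors, total counts, leaving out small RNA genes and adding 1 to the normalized counts moved nothing by over 1.5 times, and under the other size factors and scalings the log2 ratio of Dot1l ran from 1.18 to 1.20. The counts past 3-fold depended on the minimum and the fold. With a minimum of 100 reads, 33 other genes rose and 26 fell. With no minimum of reads but a normalized count of at least 3 in 1 of the libraries these were 133 and 116, and with a fold of 2 they were 188 and 170. For ISGs that rose, the count was 73 with a fold of 2, 56 when the whole counting interval had to lie past 2-fold, and 17 without multigene families, where the ISG median was 0.73. Fewer genes are left under that last choice by construction. Without unlisted interferon-related families, an alternative chosen after seeing the data, 65 other genes rose. The median log2 ratio over all genes lay between -0.013 and 0.0017 with TMM factors, total counts and size factors from 4 or 6 libraries. Quintiles of the genes by exon length or by GC content had medians between -0.0016 and 0.017. No paired analysis was possible because each condition has 1 library. Leaving out a library would leave a condition empty. Depth limits genes with few reads: Ccl5 (7 and 76 reads) and Ifit1bl2 (6 and 58 reads) have intervals over 2 wide on the log2 scale.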

Other observations

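Some gene groups were looked at after the values were seen, and are given as values only. Of 48 cytoplasmic ribosomal protein genes 44 were lower in OE-LECs, where 49% of all genes were, with a median log2 ratio of -0.08. In BECs 36 were lower, where 51.9% of all genes were, with a median of -0.07. Of 13 genes of fatty acid synthesis, which share regulation with sterol synthesis, 10 were lower and the median was -0.19. Scd2 had 36693 and 28568 reads (-0.59) and Fasn 32047 and 29343 (-0.36). Abca1, which exports cholesterol, had 1903 and 906 reads (-1.30, -1.42 to -1.19), and in BECs 4912 and 209. The 7 sterol efflux genes had a median of -0.12 and a highest value of 0.84.

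Of 7 S100 genes 6 were higher, with a median of 0.32, and beside S100a4 they differed little: S100a6 was at 0.32, S100a10 at 0.33 and S100a11 at -0.02. The 9 sphingosine 1-phosphate genes had a median of -0.04, and beside Sphk1 the sphingosine 1-phosphate receptor gene S1pr1 was at -0.10 and the exporter gene Spns2, which lymphatic endothelium uses to load lymph with this lipid, at 0.40 (0.34 to 0.46). The metal-binding protein gene Mt2 had 566 and 1816 reads (1.45, 1.31 to 1.59) in LECs and 83 and 165 in BECs.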
